A study of Mus musculus with 30 samples.

Results

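Imprinted genes, which are transcribed mainly from the allele inherited from 1 parent, were followed in the liver of adult mouse offspring. They were chosen by name, as the probe sets annotated to 47 genes with parent-of-origin expression in the mouse. A probe set was found for 38 of these among the 22206 probe sets that were not array controls. Of the 38 measured genes, 18 are listed as paternally expressed, 19 as maternally expressed, and Gnas as expressed from either allele depending on the transcript. H19, Airn, Slc22a3, Meg3, Rian, Mirg, Rtl1, Snrpn and Zrsr1 matched no probe set by symbol, gene number or accession in the annotation used, and were not analysed here.

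The arrays came from 30 C57/BL6J offspring of 16 weeks of age, with 1 liver per array, conceived by artificial insemination of females that also mated with a vasectomised male. The first letter of a group name gives the diet of the male that gave the sperm and the second that of the male that gave the seminal plasma, N for normal and L for low protein. NN offspring are thus from a normal protein diet on both sides, LL offspring from a low protein diet on both sides, NL offspring from normal protein sperm with low protein seminal plasma, and LN offspring from low protein sperm with normal protein seminal plasma. NN, NL and LN each had 3 female and 4 male arrays, and LL had 5 female and 4 male arrays. The diets were given to the fathers and not to the offspring. By the methods, each group had 4 males and 4 females, with a male and a female from each litter sampled. The numbers of arrays do not match this, and a figure legend of the paper has the animals each from separate litters. The labels tie no array to a litter, so arrays of a group may be of siblings. Signals are log2 values per probe set as the authors normalized them, and a difference of 1 on this scale is a 2-fold change. As a check of the tissue, the mean signal of 8 hepatocyte genes lay between 12.31 and 12.72 on the 29 arrays other than NL replicate 6.

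In imprinting, DNA methylation set in the egg or the sperm marks a control region, and the mark is kept through the demethylation of the early embryo by zinc finger proteins such as ZFP57 and ZFP445. The mark acts on the genes of its domain through a noncoding RNA, an insulator or the promoter itself. Many paternally expressed genes promote fetal growth and many maternally expressed genes restrain it, and several of both kinds are switched down in the liver after birth. The array reads the sum of both alleles and does not tell them apart. Below, paternally and maternally expressed mean as listed, and the active allele in adult liver was not measured. The question the design puts to these genes is whether the diet behind the sperm, which brings the paternal allele, or behind the seminal plasma, which brings none, goes with their level in the adult liver.

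Promoter sequences are shown for 2 growth genes whose windows hold the hexamer bound by ZFP57 when methylated, TGCCGC, and for 2 of the genes that later differed between the sexes. Each is the 250 bases before the RefSeq start in GRCm38.p6, 5′ to 3′ on the strand of the gene, with the hexamer on either strand in capitals, so that GCGGCA is a match on the opposite strand. Mest lies at chr6:30737803-30738052 on the plus strand, Plagl1 at chr10:13090582-13090831 on the plus strand, Ppp1r9a at chr6:4903061-4903310 on the plus strand and Phlda2 at chr7:143502525-143502774 on the minus strand.
Mest: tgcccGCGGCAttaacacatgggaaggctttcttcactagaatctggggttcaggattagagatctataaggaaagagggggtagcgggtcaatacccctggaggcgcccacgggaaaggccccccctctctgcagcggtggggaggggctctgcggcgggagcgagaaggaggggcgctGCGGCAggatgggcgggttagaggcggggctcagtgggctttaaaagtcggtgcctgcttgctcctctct
Plagl1: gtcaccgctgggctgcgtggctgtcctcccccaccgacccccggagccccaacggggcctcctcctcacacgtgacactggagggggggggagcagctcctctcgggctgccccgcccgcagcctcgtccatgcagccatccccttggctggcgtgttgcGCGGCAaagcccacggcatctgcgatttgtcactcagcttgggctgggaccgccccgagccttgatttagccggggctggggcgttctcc
Ppp1r9a: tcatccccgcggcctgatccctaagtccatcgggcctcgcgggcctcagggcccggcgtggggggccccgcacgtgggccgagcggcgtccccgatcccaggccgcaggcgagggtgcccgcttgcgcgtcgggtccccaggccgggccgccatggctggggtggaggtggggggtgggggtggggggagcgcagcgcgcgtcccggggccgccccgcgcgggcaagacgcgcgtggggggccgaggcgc
Phlda2: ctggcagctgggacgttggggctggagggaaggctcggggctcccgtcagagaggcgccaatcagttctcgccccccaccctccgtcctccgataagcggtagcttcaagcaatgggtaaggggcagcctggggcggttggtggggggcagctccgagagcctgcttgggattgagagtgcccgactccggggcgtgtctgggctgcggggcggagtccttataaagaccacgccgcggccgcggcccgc

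The Mest window holds the hexamer 2 times and the Plagl1 window 1 time, while the windows of Ppp1r9a and Phlda2 hold none. The CG dinucleotide occurs 14 times in that of Mest, 19 times in Plagl1, 35 times in Ppp1r9a and 21 times in Phlda2. RefSeq gave 42 such windows for 31 of the measured genes, of which 7 (16.7%) hold the hexamer, against 8.68% of 32851 windows over all genes. The observed over expected ratio of CG had a median of 0.65 in the windows of the imprinted genes and 0.37 over all genes, and 64.3% against 34.0% of windows were above 0.6. Some genes have several overlapping windows, so these shares describe windows and not independent genes. The sequence TTCNNNGAA, which STAT5 binds, was in 2 of the 42 windows (4.76%) and in 7.02% of all windows.

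The signal of 14 of the 38 genes was above 6.72, the 95th percentile of 5222 negative control probe sets, as was that of 32% of all probe sets. These were 4 paternally expressed genes, namely Igf2, Mcts2, Impact and Rasgrf1, 9 maternally expressed genes, namely Igf2r, Cd81, Tssc4, Nap1l4, Slc22a18, Copg2, Ube3a, Blcap and Dcn, and Gnas. Mcts2 is a retrogene copy of Mcts1, so its signal may hold that of its source gene. The means of Igf2 and Mcts2 over the 29 arrays other than NL replicate 6, 6.80 and 6.81, were the nearest above that level, and Mest at 6.20 was the nearest below it. A further 17 genes lay between that level and 3.78, the median of the negative controls. The remaining 7, among them Dio3, which encodes an enzyme that inactivates thyroid hormone, and Usp29, which shares its promoter region with Peg3, were at or below that median. Below, the range of the negative controls means signals up to their 95th percentile, 6.72, and not up to their highest signal.

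One array stood apart before any comparison was made. On NL replicate 6, labelled male, the mean hybridisation control signal was 7.61, while the remaining 29 arrays gave 10.14 to 10.95. It correlated with them at 0.71 to 0.78, and they correlated with each other at 0.96 or more. Its signals of the Y-linked genes Eif2s3y (3.24), Kdm5d (3.52) and Uty (2.41) were low for a male. Of the 38 imprinted genes, 18 were above and 11 below the whole range of the other 29 arrays on it, and 9 were inside. Over all probe sets 43.5% were above and 29.5% below. Dcn, the matrix proteoglycan decorin, was at 6.74 on this array and between 10.23 and 11.29 on the others. Igf2, the fetal growth factor, was at 8.50 and between 6.53 and 7.11 on the others, and Igf2r, the receptor that clears it, was at 4.84 and between 6.81 and 7.98 on the others. Of 12 genes with a mean above 7, 10 were lower on this array, and of 26 with a mean of 7 or less, 19 were higher. Across the 38 genes the deviation of NL replicate 6 had a correlation of −0.72 with the mean of the other arrays, and across all probe sets −0.66, as a description over genes that share the same arrays. All 30 arrays were kept in the fit, since the study states that no data were excluded, and each result is given also without NL replicate 6. A second array, LL replicate 1, labelled female, had raised Y-linked signals for a female, for example 6.56 for Eif2s3y.

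**Figure D1:**
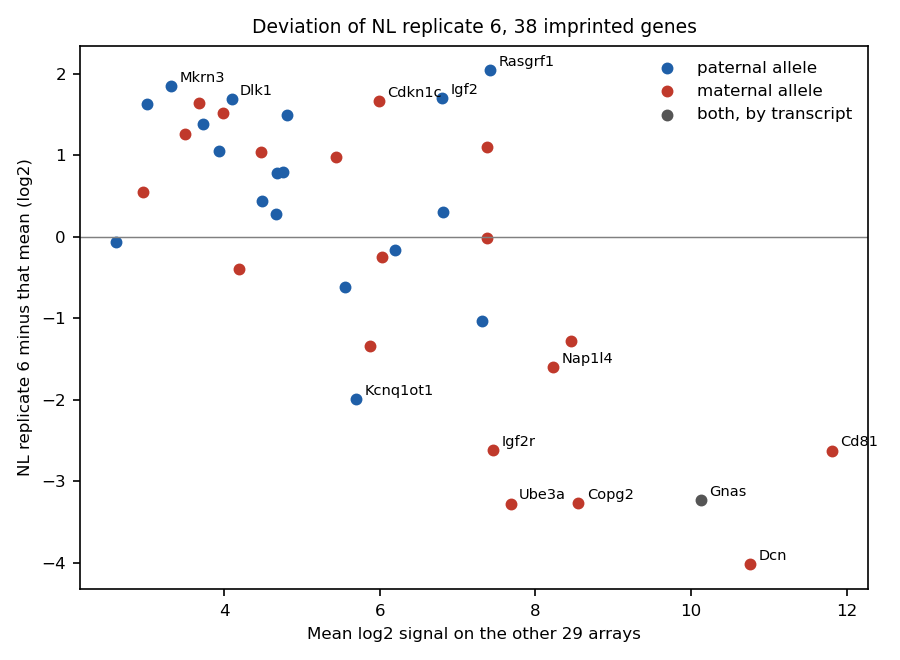
Each point is 1 of the 38 imprinted genes, with its mean log2 signal on 29 arrays on the x axis and the log2 signal of NL replicate 6 minus that mean on the y axis (blue paternally, red maternally expressed, grey Gnas). Genes of high signal such as Dcn (mean 10.76) lay below 0 and many of low signal such as Mkrn3 (mean 3.31) lay above it.

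The growth genes are described first, starting with the paternally expressed ones that promote growth. Igf2 ranged from 6.53 to 7.01 with a median of 6.68 in NN offspring and from 6.55 to 7.11 with a median of 6.86 in LL offspring. It ranged from 6.70 to 6.99 with a median of 6.80 on the 6 NL arrays without replicate 6, and from 6.59 to 6.91 with a median of 6.81 in LN offspring. The 4 groups overlapped, and without NL replicate 6 the log2 difference to NN was 0.15 (SE 0.08, limma adjusted p = 0.653) in LL, 0.11 (SE 0.09, adjusted p = 0.630) in NL and 0.05 (SE 0.09, adjusted p = 0.883) in LN. With all arrays the NL difference of Igf2 was 0.35 (SE 0.18, adjusted p = 0.222), over 1.5 times as large.

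Dlk1, a membrane protein of the Notch ligand kind that marks fetal hepatoblasts, ranged from 2.96 to 4.38 with a median of 4.25 in NN and from 3.63 to 4.52 with a median of 4.09 in LL offspring. It was within 4.16 to 4.28, with a median of 4.23, on the 6 NL arrays and within 3.68 to 4.51, with a median of 4.13, in LN offspring. The NL arrays lay within the NN range. The differences to NN were 0.07 (SE 0.16) in LL, 0.24 (SE 0.18) in NL and 0.14 (SE 0.17) in LN, with adjusted p of 0.933, 0.566 and 0.806. These are differences of means, and the NN mean of 3.99 lay below the NN median, with NN replicate 3 lowest at 2.96. No other group had a median above that of NN. With NL replicate 6, at 5.79, the NL difference was 0.46 (SE 0.22, adjusted p = 0.204).

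Mest, a protein of the hydrolase fold family known from growth of the fetus and of fat, ranged from 5.63 to 6.57 with a median of 6.07 in NN and from 5.92 to 6.64 with a median of 6.28 in LL offspring. It ranged from 5.46 to 6.56 with a median of 6.16 on the 6 NL arrays and from 5.87 to 6.76 with a median of 6.49 in LN offspring. The groups from low protein sperm had the higher medians and overlapped the others. The difference was 0.27 (SE 0.16, adjusted p = 0.665) in LL, 0.08 (SE 0.18, adjusted p = 0.879) in NL and 0.31 (SE 0.17, adjusted p = 0.496) in LN offspring. Peg3, a zinc finger protein, had the second largest SD of the 38 genes over the 29 arrays, and ranged from 4.31 to 6.32 in NN, 3.25 to 5.34 in LL, 3.96 to 5.99 in NL and 3.73 to 5.02 in LN offspring. Its differences to NN were −0.28 (SE 0.29), −0.15 (SE 0.32) and −0.47 (SE 0.31) in LL, NL and LN. Plagl1, a zinc finger factor of an imprinted growth network, ranged from 3.89 to 4.97 in NN, 4.09 to 5.26 in LL, 4.17 to 5.29 in NL and 4.62 to 5.16 in LN offspring. No Plagl1 difference to NN was over 0.23 (SE 0.17, adjusted p = 0.637, in LN).

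The maternally expressed growth restrainers overlapped between the groups as well. Igf2r ranged from 7.09 to 7.98 with a median of 7.42 in NN, from 6.81 to 7.77 with a median of 7.44 in LL, from 7.03 to 7.78 with a median of 7.51 on the 6 NL arrays and from 7.18 to 7.92 with a median of 7.60 in LN offspring. Its differences to NN were −0.06 (SE 0.15), −0.0034 (SE 0.16) and 0.11 (SE 0.15) in LL, NL and LN, and with NL replicate 6 the NL difference was −0.38 (SE 0.28, adjusted p = 0.370). Cdkn1c, an inhibitor of cyclin-dependent kinases, ranged from 5.75 to 6.44 in NN, 5.52 to 6.19 in LL, 5.90 to 6.47 on the 6 NL arrays and 5.75 to 6.12 in LN offspring. Its NL difference was 0.15 (SE 0.12, adjusted p = 0.596) without NL replicate 6 and 0.37 (SE 0.18, adjusted p = 0.211) with it. Grb10, an adaptor that dampens insulin receptor signalling, ranged from 3.60 to 4.68 in NN, 3.62 to 4.55 in LL, 4.07 to 4.34 on the 6 NL arrays and 3.10 to 4.64 in LN offspring, and its 3 differences to NN were within 0.03.

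**Figure D2:**
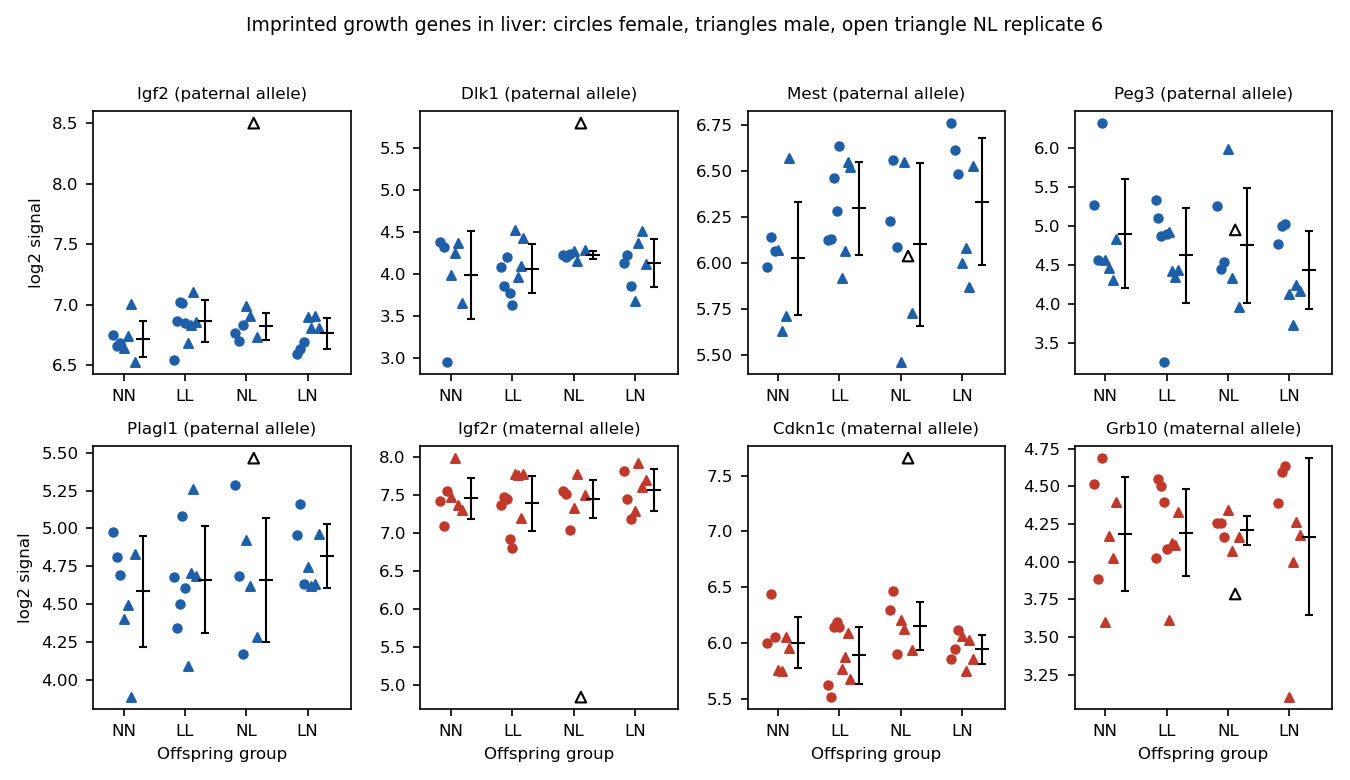
Log2 signal (y axis) of 8 imprinted growth genes on every array by offspring group (x axis), circles female, triangles male, the open triangle NL replicate 6, with means and SD of the other arrays to the right of each group. The groups overlap in each panel, and NL replicate 6 lies far from the other NL arrays for Igf2 (8.50), Dlk1 (5.79), Igf2r (4.84) and Cdkn1c (7.66).

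Over all 38 genes, limma called 0 at an adjusted p under 0.05 in LL, NL or LN when compared to NN offspring, with all arrays and without NL replicate 6. The same contrasts tested with the plain residual variance, as in a one-way analysis of variance, also gave 0 with all arrays. The share of all probe sets called with all arrays was 0% in LL, 0.0135% in NL and 0% in LN, and without NL replicate 6 it was 0%, 0.054% and 0.0405%. At an unadjusted p under 0.05, 4 imprinted genes (10.5%) were counted in LL without NL replicate 6, against 8.43% of all probe sets. In NL the count was 4 (10.5%) against 14.1%, and in LN it was 2 (5.26%) against 11.6%. With all arrays these counts were 1, 7 and 1, against backgrounds of 3.39%, 23.8% and 4.66%. The shares were near or under the background, except in LL without NL replicate 6. No imprinted gene separated a group wholly from NN without NL replicate 6, against 0.0315%, 0.725% and 0.311% of all probe sets in LL, NL and LN.

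The precision bounds what could be missed in signal. For the 24 genes at or below the 95th percentile of the negative controls, a narrow interval of the signal does not bound a change in RNA. Without NL replicate 6 the 95% interval of the difference to NN, taken gene by gene, lay inside a 1.5-fold change in either direction for 32 of the 38 genes in LL and for 31 in NL and in LN. With all arrays this held for 24, 12 and 20 genes. Divided by allele, 13 of 18 paternally and 11 of 19 maternally expressed genes were higher in LL than in NN offspring, with medians of 0.08 and 0.0093 against 0.0124 over all probe sets. In NL without replicate 6 the counts were 12 of 18 and 9 of 19, with medians of 0.09 and −0.0034 against 0.0139, and in LN they were 12 of 18 and 13 of 19, with medians of 0.05 and 0.09 against 0.0225. With all arrays the paternal median in NL was 0.21 against 0.0411 over all probe sets. The allele lists differ in signal, with 4 of 18 paternally and 9 of 19 maternally expressed genes above the 95th percentile of the negative controls. On NL replicate 6, 19 of 26 genes of low signal were higher than on the other arrays. The medians over all probe sets were not matched on signal, so signal level and allele cannot be told apart here. The 3 comparisons share the NN arrays.

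**Figure D3:**
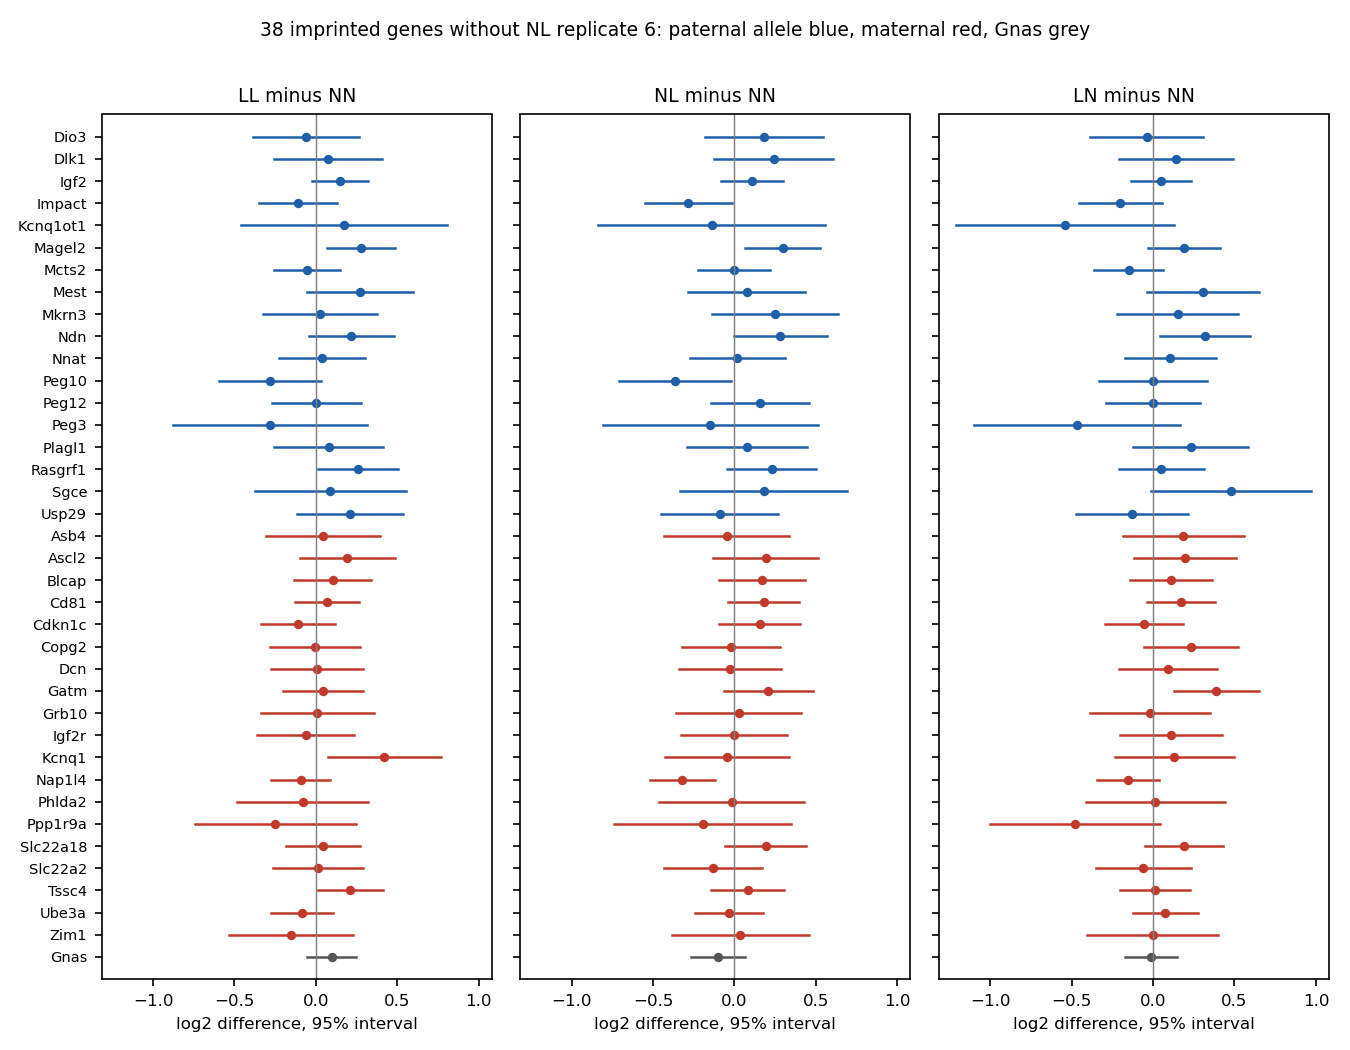
Log2 difference to NN (x axis, point, with its 95% interval as a line) for each of the 38 imprinted genes in LL, NL and LN offspring, fitted without NL replicate 6 (blue paternally, red maternally expressed, grey Gnas). Most intervals cross 0, and none of the genes passed an adjusted p of 0.05.

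The genes with the smallest unadjusted p in these comparisons, with either fit, are given by value. In LL offspring, Kcnq1, a potassium channel, ranged from 5.12 to 6.30 with a median of 5.71, against 4.59 to 5.72 with a median of 5.40 in NN (difference 0.42, SE 0.17, adjusted p = 0.519 without NL replicate 6). Magel2, a MAGE family protein of the Prader-Willi region, ranged from 3.64 to 3.97 in LL, 3.56 to 4.08 on the 6 NL arrays and 3.47 to 4.20 in LN offspring, against 3.21 to 3.82 in NN. Its differences were 0.28 (SE 0.10, adjusted p = 0.449), 0.30 (SE 0.11, adjusted p = 0.234) and 0.19 (SE 0.11, adjusted p = 0.511), and its signal was within the range of the negative controls in every group. With all arrays the NL difference of Magel2 was 0.48 (SE 0.16, adjusted p = 0.128). Ndn, its neighbour and also a MAGE protein, ranged from 3.84 to 4.26 in LN and 3.41 to 4.16 in NN offspring (difference 0.32, SE 0.13, adjusted p = 0.357). Its NL difference was 0.28 (SE 0.14, adjusted p = 0.365) without NL replicate 6 and 0.42 (SE 0.16, adjusted p = 0.155) with it.

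Nap1l4, a histone chaperone of the Kcnq1 domain, ranged from 7.68 to 8.21 on the 6 NL arrays and from 8.14 to 8.50 in NN offspring, and 3 of the 6 NL arrays lay below every NN array. Its difference was −0.32 (SE 0.10, adjusted p = 0.150), and the exact two-sided permutation test of these 6 and 7 arrays gave p = 0.00291, unadjusted and for a gene picked by its small p. With all arrays the difference was −0.52 (SE 0.16, adjusted p = 0.119), over 1.5 times as large. Rasgrf1, an exchange factor for Ras, ranged from 7.39 to 7.67 on the 6 NL arrays and from 7.26 to 7.97 in LL, against 7.01 to 7.75 in NN offspring. Its differences were 0.23 (SE 0.13, adjusted p = 0.444) and 0.26 (SE 0.12, adjusted p = 0.577), and the NL value was 0.51 (SE 0.22, adjusted p = 0.173) with NL replicate 6, at 9.46. Impact, which restrains a kinase of the amino acid starvation response, ranged from 6.91 to 7.32 on the 6 NL arrays and from 7.02 to 7.96 in NN offspring (difference −0.28, SE 0.13, adjusted p = 0.327). Peg10, a retrotransposon-derived placental gene, ranged from 3.79 to 4.51 on the 6 NL arrays and from 4.22 to 5.09 in NN offspring (difference −0.36, SE 0.17, adjusted p = 0.333). Gatm, the first enzyme of creatine synthesis, ranged from 5.92 to 6.77 in LN and from 5.64 to 6.24 in NN offspring (difference 0.39, SE 0.13, adjusted p = 0.248). Each of these groups overlapped NN.

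The 2 by 2 design also separates the sperm diet, as the mean of LL and LN minus that of NN and NL, from the seminal plasma diet, as the mean of LL and NL minus that of NN and LN. Limma called 0 of the 38 genes at an adjusted p under 0.05 for either, with and without NL replicate 6, as for 0% of all probe sets. At an unadjusted p under 0.05 without NL replicate 6, 2 genes were counted for the sperm diet and 3 for the seminal plasma diet, against 6.52% and 8.55% of all probe sets. The 95% intervals lay inside a 1.5-fold change of signal for 36 and 37 of the 38, with the limit for low signals given above. For the sperm diet the counted genes were Mest, 0.25 higher (SE 0.12, adjusted p = 0.762), and Kcnq1, 0.30 higher (SE 0.13, adjusted p = 0.750). Cdkn1c, at −0.27 (SE 0.12, adjusted p = 0.844) with all arrays, was at −0.16 (SE 0.08, adjusted p = 0.771) without NL replicate 6. For the seminal plasma diet they were Peg10 at −0.32 (SE 0.11, adjusted p = 0.518), Magel2 at 0.19 (SE 0.08, adjusted p = 0.552) and Rasgrf1 at 0.22 (SE 0.09, adjusted p = 0.558). With all arrays Rasgrf1 was at 0.36 (SE 0.15, adjusted p = 0.442) and Magel2 at 0.28 (SE 0.11, adjusted p = 0.442). Nap1l4 was at −0.23 with all arrays and −0.13 (adjusted p = 0.589) without NL replicate 6. By allele, 10 of 18 paternally and 14 of 19 maternally expressed genes were higher with low protein sperm without NL replicate 6, with medians of 0.04 and 0.03 against 0.01 over all probe sets. With all arrays the paternal direction turned, with 7 of 18 higher and a median of −0.03, while 12 of 19 maternally expressed genes were higher with a median of 0.07, against −0.0039 over all probe sets. With low protein seminal plasma 13 of 18 and 9 of 19 were higher without NL replicate 6, with medians of 0.07 and −0.03 against 0.0053. With all arrays 15 of 18 and 8 of 19 were higher, with medians of 0.13 and −0.01 against 0.0212. The unequal signal of the allele lists, given above, limits these counts as well.

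The departure from additivity and the direct comparison of NL with LN offspring gave 0 called genes each by limma, beside 0.113% and 0% of all probe sets without NL replicate 6, with 4 and 1 at an unadjusted p under 0.05 without NL replicate 6, against 12.6% and 6.89% of all probe sets. The 4 were Gatm (−0.55, SE 0.18, adjusted p = 0.184), Nap1l4 (0.38, SE 0.13, adjusted p = 0.212), Impact (0.37, SE 0.18, adjusted p = 0.376) and the transporter Slc22a18 (−0.34, SE 0.16, adjusted p = 0.396). With all arrays Nap1l4 was at 0.58 (SE 0.22, adjusted p = 0.348) and Slc22a18 at −0.14 (SE 0.24, adjusted p = 0.790). Within each sex, limma again called 0 of the 38 genes in LL, NL or LN when compared to NN, with and without NL replicate 6. The background was at most 0.036% of all probe sets, in LN males without that array. In females without NL replicate 6 the unadjusted counts were 4, 3 and 7, against 11.3%, 9.53% and 8.02% of all probe sets, and in males they were 0, 1 and 4, against 5.03%, 11.5% and 12.1%. Among these values were Kcnq1 in LL females (0.71, SE 0.23, adjusted p = 0.276), Impact in NL females (−0.60, SE 0.17, adjusted p = 0.361), Nap1l4 in NL males (−0.39, SE 0.14, adjusted p = 0.280, and −0.72, SE 0.21, adjusted p = 0.0816 with all arrays) and Kcnq1ot1, the noncoding RNA that silences the Kcnq1 domain, in LN males (−1.06, SE 0.37, adjusted p = 0.258). Kcnq1ot1 was at 3.93 to 6.00 in 4 LN males and at 5.11 to 6.51 in 4 NN males, overlapping. In NL males with all arrays, 11 of 38 genes were at an unadjusted p under 0.05, against 32.8% of all probe sets, and 1 without NL replicate 6. Whether LL, NL or LN acted unequally in males and females was tested as an interaction, and limma called 0 genes, with 0, 1 and 4 at an unadjusted p under 0.05 without NL replicate 6, against 6.49%, 4.98% and 7.1%.

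Between the sexes, limma called 2 of the 38 genes with all arrays, Ppp1r9a and Phlda2, and also Dcn without NL replicate 6, against 2.51% and 5.65% of all probe sets. The 3 genes are listed as maternally expressed. Ppp1r9a, which encodes neurabin, an actin-binding partner of protein phosphatase 1, ranged from 5.50 to 7.07 with a median of 6.20 on 15 male arrays without NL replicate 6 and from 4.96 to 6.13 with a median of 5.45 on 14 female arrays. All 15 males were above the female median, 10 were above every female, and the male mean was the higher in all 4 diet groups, by 0.70 in NN, 0.83 in LL, 0.98 in NL and 0.43 in LN. The log2 difference was 0.74 (SE 0.12, limma adjusted p = 0.000199). With all arrays, where NL replicate 6 was at 4.54, it was 0.62 (SE 0.17, adjusted p = 0.0431). Without both that array and LL replicate 1 it was 0.75 (SE 0.13, adjusted p = 0.000249). The mean of Ppp1r9a without NL replicate 6, 5.88, lay within the range of the negative controls.

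Dcn was lower in males. It ranged from 10.23 to 10.92 with a median of 10.57 on 15 male arrays and from 10.60 to 11.29 with a median of 10.94 on 14 female arrays. All 15 males were below the female median, 9 were below every female, and the male mean was the lower in all 4 diet groups. The difference was −0.38 (SE 0.08, adjusted p = 0.00346) without NL replicate 6, and −0.37 (SE 0.08, adjusted p = 0.0054) also without LL replicate 1. With all arrays it was −0.62 (SE 0.24, adjusted p = 0.242) and not called. In liver Dcn is made mainly by stellate cells and fibroblasts. The 8 marker genes of those cells were all lower in males without NL replicate 6, Lrat by −0.48 (adjusted p = 0.00123) and Lum by −0.42 (adjusted p = 0.00254) past the threshold. The mean signal of the 8 was 6.03 to 6.46 on male and 6.31 to 6.92 on female arrays. The 5 endothelial and the 5 Kupffer cell markers were lower in males as well, with 1 of each past the threshold. The share of all probe sets called in this fit is given above with Ppp1r9a. Values of these markers with all arrays are not given here. The part of these cells in the Dcn difference was not tested, and in whole liver fewer cells of a type and less RNA per cell cannot be told apart.

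Phlda2, a small protein with a pleckstrin homology domain that restrains placental growth, ranged from 3.37 to 4.45 with a median of 3.62 on 15 male and from 2.77 to 3.98 with a median of 3.24 on 14 female arrays. All 15 males were above the female median, yet only 3 were above every female, and its mean over these 29 arrays is below the median of the negative controls. The difference was 0.44 (SE 0.12, adjusted p = 0.0241) without NL replicate 6, and it was 0.50 (SE 0.14, adjusted p = 0.0392) with all arrays. By diet it was 0.03 in NN, 0.28 in LL, 0.59 in NL and 0.87 in LN, and the sex difference in the LN effect was 0.84 (SE 0.34, adjusted p = 0.635).

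**Figure D4:**
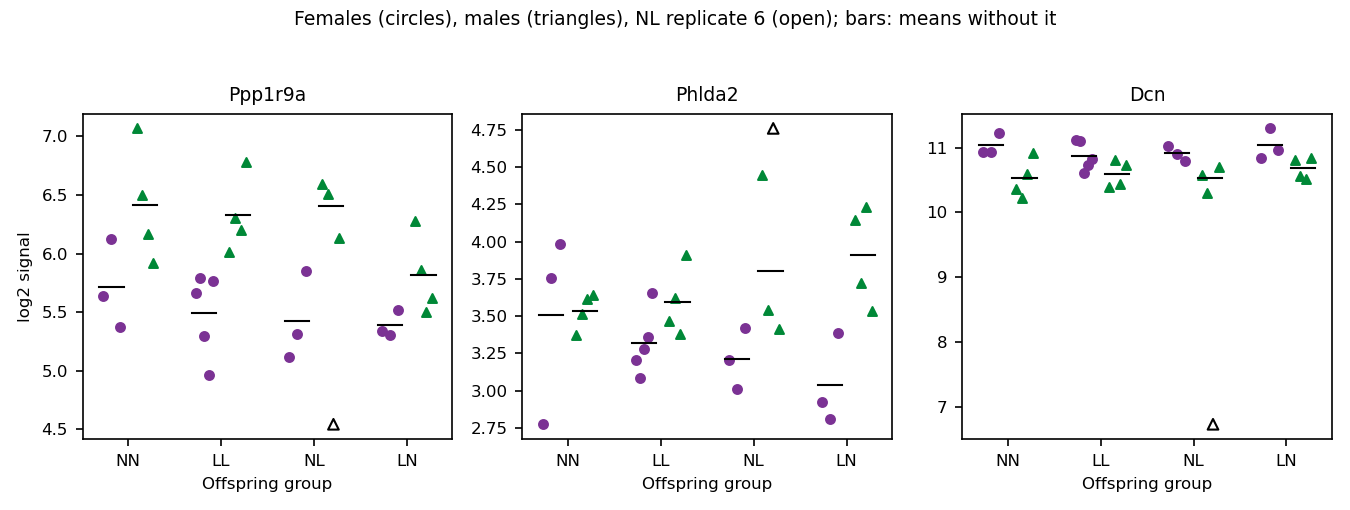
Log2 signal (y axis) of Ppp1r9a, Phlda2 and Dcn by offspring group (x axis) in females (circles) and males (triangles), with bars at the means without NL replicate 6, which is drawn as an open triangle. Male means of Ppp1r9a and Phlda2 are above and those of Dcn below the female means in all 4 groups.

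The calls of the fit with all arrays depended on single arrays, since removal of 1 array left 0 calls for 12 of the 30 arrays, 1 call for 13, 2 calls for 4 and 3 calls for NL replicate 6. At an unadjusted p under 0.05, 14 of the 38 (36.8%) were counted without NL replicate 6, against 17.3% of all probe sets, and 11 (28.9%) against 13.1% with all arrays. The median absolute difference between the sexes was 0.16 over the 38 genes and 0.09 over all probe sets. Over all probe sets 8.58% were higher and 8.67% lower in males at that level without NL replicate 6. Of the maternally expressed genes 6 were higher and 3 lower, while of the paternally expressed ones 0 were higher and 5 lower, namely Peg3, Dio3, Mest, Usp29 and Impact. None of these 5 was called at an adjusted p under 0.05. Only Impact among them had a signal above the range of the negative controls, and Dio3 and Usp29 were at or below the median of the controls. Without NL replicate 6, Peg3 was at −0.46 (SE 0.20, adjusted p = 0.215), Mest at −0.25 (SE 0.11, adjusted p = 0.231) and Impact at −0.18 (SE 0.08, adjusted p = 0.203). Of maternally expressed genes, Grb10 was at −0.32 (SE 0.11, adjusted p = 0.104), Gatm at −0.21 (SE 0.09, adjusted p = 0.175), Slc22a18 at 0.20 (SE 0.08, adjusted p = 0.131) and Asb4, a SOCS box protein, at 0.28 (SE 0.11, adjusted p = 0.156). Kcnq1 and Igf2r were the other 2 higher in males, at 0.26 (SE 0.12, adjusted p = 0.245) and 0.23 (SE 0.10, adjusted p = 0.237). Igf2 was at 0.09 (SE 0.06, adjusted p = 0.512). With all arrays Igf2r was at 0.06 (SE 0.19, adjusted p = 0.913), Slc22a18 at 0.12 (SE 0.12, adjusted p = 0.687) and Igf2 at 0.19 (SE 0.12, adjusted p = 0.512). Asb4 and Ppp1r9a are neighbours in the Peg10 and Sgce domain, where Peg10 and Sgce themselves were at 0.21 (SE 0.11, adjusted p = 0.334) and −0.06 (SE 0.16, adjusted p = 0.904).

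Neighbours in a domain were also compared array by array, after the means of the 8 groups of diet and sex were removed. Of 23 listed pairs, 14 had both genes measured. Without NL replicate 6, Pearson correlations over 29 arrays ranged from −0.25 (Phlda2 and Slc22a18) to 0.31 (Cdkn1c and Phlda2, Spearman 0.32), and 0 of the 14 passed a Benjamini-Hochberg adjusted permutation p of 0.05 (both adjusted p for Cdkn1c and Phlda2 0.562 and 0.409). With all 30 arrays 6 pairs passed by Pearson as deposited and 2 after quantile normalization, and 0 passed by Spearman as well. The cause was not tested. With all 30 arrays as deposited, Cdkn1c and Phlda2 had r = 0.54 (permutation p = 0.00207, adjusted 0.015) and rho = 0.38 (permutation p = 0.0371, adjusted 0.26). Their r was 0.27 without the 2 arrays farthest from the median of Cdkn1c.

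Genes around the imprinted ones, from lists written with earlier results of these data known, gave the following counts. Of 31 measured further imprinted genes, 0 were called by limma in LL, NL or LN when compared to NN, with 7, 5 and 5 at an unadjusted p under 0.05 without NL replicate 6, against 8.43%, 14.1% and 11.6% of all probe sets. With all arrays these counts were 3, 11 and 2, against 3.39%, 23.8% and 4.66%. Between the sexes 2 were called higher and 2 lower in males without NL replicate 6, against 5.65% of all probe sets called, among them Qpct, a glutaminyl cyclase, at −1.10 (SE 0.12, adjusted p = 3.53e-07), H13, a signal peptide peptidase, at 0.32 (SE 0.08, adjusted p = 0.0168) and Smoc1, a matricellular protein, at −0.31 (SE 0.08, adjusted p = 0.0215), and with all arrays 0 were higher and 1 was lower. Of 23 genes of the insulin-like growth factor axis, 0 were called in the 3 diet comparisons, with 2, 2 and 8 at an unadjusted p under 0.05 without NL replicate 6, against the same 8.43%, 14.1% and 11.6% of all probe sets. With all arrays these counts were 1, 5 and 5, against 3.39%, 23.8% and 4.66%. Between the sexes 0 were called higher and 5 lower in males without NL replicate 6, against 5.65% of all probe sets called. These included Socs2, an inhibitor of growth hormone signalling, at −1.35 (SE 0.25, adjusted p = 0.000677), the binding protein Igfbp5 at −0.56 (SE 0.11, adjusted p = 0.00165) and Igfals, which holds IGF-1 in the serum complex, at −0.41 (SE 0.09, adjusted p = 0.00576), and with all arrays 3 were lower. Of 38 genes that set or keep imprints, 3, 11 and 6 were at an unadjusted p under 0.05 in LL, NL and LN without NL replicate 6, against 8.43%, 14.1% and 11.6% of all probe sets. Limma called 0 of them in LL, and Ctcfl, a germline relative of CTCF, in NL (0.90, SE 0.17, adjusted p = 0.025) and in LN (0.90, SE 0.16, adjusted p = 0.0297), against 0.054% and 0.0405% of all probe sets. With all arrays the LN call was lost (adjusted p = 0.20), and the NL value of Ctcfl is not given here for that fit. The NL and LN comparisons share the NN arrays. The signal of Ctcfl in each group is not given here, so its differences cannot be set against the range of the negative controls. In males without NL replicate 6, against 5.65% of all probe sets called, 1 of this list was higher, Zfp445, which keeps imprints together with Zfp57, at 0.48 (SE 0.10, adjusted p = 0.00306), and 3 were lower, among them the cohesin subunit Stag1 at −0.30 (SE 0.08, adjusted p = 0.0215) and Cbx3, a heterochromatin protein, at −0.25 (SE 0.07, adjusted p = 0.0267). With all arrays limma called 0 of this list between the sexes, with 5 at an unadjusted p under 0.05. The shares of all probe sets between the sexes with all arrays are given above, with the imprinted genes. Unadjusted counts of this list with all arrays in the 3 diet comparisons are not given here.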

How the data were processed

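Liver RNA was labelled with the WT PLUS kit and hybridised to 1-colour Clariom S mouse arrays, and the submitters' processing notes name Partek. The deposited values are log2 signals, 1 per probe set and array. The sources used here do not state the background correction, summarisation and normalization. Of 29129 probe sets, 6923 controls were left out and no filter on signal was set. Probe sets were named through the platform annotation, in which 19572 of the 22206 carry a single gene symbol.

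All 30 arrays entered 1 model of 4 diet groups and 1 of 8 groups of diet and sex (limma 3.58.1, R 4.3.3). In 17 comparisons, two-sided moderated tests were run, with Benjamini-Hochberg adjustment across the 22206 probe sets. Every fit was repeated without NL replicate 6, and without it and LL replicate 1. Correlations of neighbours used 100000 permutations in Python 3.11.15 with numpy 2.4.6. The procedure was tested on simulated data. Precision is limited by the number of arrays. The labels name no litter for an array, so p-values measure the spread between arrays only.

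The members and lists were chosen with earlier results of these data known. Members described by value are 8 growth genes, every member at an adjusted p under 0.05, and in LL, NL and LN against NN, both diets and the sexes up to 3 in each direction with the smallest unadjusted p under 0.05, with all arrays or without NL replicate 6. Kcnq1ot1 and the genes named for interactions, single sexes and other sex differences were picked after their values were seen. Alternatives were quantile normalization, centring on the median, leaving out low signals, the plain residual variance, array weights, a block for the replicate number, a sex covariate, only the groups compared, the highest probe set of a gene, a threshold of 0.01 on the adjusted p, and the removal of each array in turn. The removal of each of the other 29 arrays was added after seeing the data.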

Additional observations from a re-analysis of the deposited data

Results flagged for a closer look

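Each gene described by value was examined in its 4 diet groups for an array far from the rest of its group, by the gap to the nearest array relative to the range of the group (84 groups of values from 21 genes). Chance alone flags about 1 in 20 groups. Of 14 arrays so found, 10 were NL replicate 6, which was highest of its group for Igf2 (8.498), Dlk1 (5.79), Cdkn1c (7.656), Magel2 (5.103) and Rasgrf1 (9.46), and lowest for Igf2r (4.838), Dcn (6.74), Nap1l4 (6.621), Slc22a18 (7.178) and Impact (6.272). The others were Asb4 on NN replicate 1, lowest at 3.622, Grb10 on LN replicate 4, lowest at 3.101, Magel2 on LN replicate 4, highest at 4.195, and Peg3 on LL replicate 4, lowest at 3.251.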

How the results depend on the processing

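The number of imprinted genes called between the sexes, 2 with all arrays, was 1 after quantile normalization, after centring each array on its median and with low signals left out, and 0 with the plain residual variance, with the replicate number as a block and at an adjusted p under 0.01. Ppp1r9a was lost after quantile normalization (adjusted p = 0.136) and centring (0.0575), and Phlda2 was not tested with low signals left out. Leaving out 1 array gave 0 to 3, the 3 without NL replicate 6, and the 0 without NN replicate 1 or 5, LL replicate 1, 3, 7 or 9, NL replicate 1, 2 or 4, or LN replicate 1, 2 or 4. Of the 29 arrays without it, leaving out any 1 kept Ppp1r9a and Dcn called in 29 of 29 cases and Phlda2 in 26, with an adjusted p of 0.0552 without NN replicate 1, 0.0533 without LN replicate 2 and 0.0554 without NL replicate 4. With array weights the adjusted p of Dcn was 0.00368, at a difference of −0.39. The replicate block had values of 1.29 (adjusted p = 0.464) for Ppp1r9a and 0.15 (adjusted p = 1) for Phlda2. The numbers are nearly those of the sexes. Deviations of the 42 pairs of same-numbered arrays correlated between −0.31 and 0.41, with a median of 0.16 and 26 pairs over 0.1. Of the 30 arrays, 8 were closest to one of their own number. Whether the replicate numbers mark a factor shared by arrays was not tested. Between NL and NN males the count of 0 ranged from 0 to 12 when 1 array was left out, with 8 without NL replicate 5 and 12 without NL replicate 7, both fits that keep NL replicate 6. The share of all probe sets called in those fits is not given here, so these counts cannot be read as particular to imprinted genes. All other counts of called genes stayed at 0 under every alternative run. Neighbour correlations changed sign without NL replicate 6 for Nnat and Blcap (−0.0674), Kcnq1 and Kcnq1ot1 (0.26), Cd81 and Tssc4 (−0.109), Mest and Copg2 (0.0161), Peg10 and Sgce (0.0181), Ndn and Magel2 (−0.22) and Ndn and Mkrn3 (−0.19), and after quantile normalization for Cd81 and Tssc4 (−0.448) and Peg10 and Sgce (0.0797). The cause was not tested. Signals of 24 of the 38 genes lie within the range of the negative controls, which limits what their differences show.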
